A study of Mus musculus with 14 samples.

Results

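Fos, Fosb, Fosl2, Junb, Egr1, Egr2, Egr3 and Egr4 encode transcription factors of the immediate early response. They were taken by name, through the transcript accession of each probe, with no cutoff on a measured value. Earlier results of these data were known when the genes were chosen. They are 8 of the 20883 genes named on the array, and all 8 were among the 14447 genes tested. Fosl2 had 2 probes and each of the others 1, which makes 9 of the 55681 probes. The tissue was medial prefrontal cortex (mPFC), part of the frontal lobe with roles in emotion and social behaviour, taken from 14 wild-type C57BL/6 mice. Repeated social defeat stress (R-SDS) places a mouse again and again with an aggressor; 6 of the defeated mice are labelled susceptible and 3 resilient by behavioural phenotype. The 5 naive mice went through cage transfer in place of defeat. All 14 mice, controls included, were anaesthetised with pentobarbital and perfused with cold buffer 4 h after their final session. RNA from a 1.5 mm punch (35 ng per mouse) was labelled with 1 dye (Cy3), with an array for each mouse. The punch holds every cell type of the area, so fewer cells of a type and less RNA per cell cannot be told apart. The study ran as 2 independent experiments, and the labels do not tie mice to them.

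Immediate early genes are switched on within minutes of a stimulus by factors already present in the cell. The kinase ERK acts through ELK proteins and serum response factor at CArG boxes, and CREB acts at cAMP response elements, whose core is TGACG. FOS, FOSB and FOSL2 pair with JUN proteins such as JUNB to form AP-1, while EGR proteins are zinc finger factors that bind GC-rich sites and are held in check by NAB co-repressors. In cortex these transcripts are used as marks of recent neuronal activity, and most of them decay quickly. FOSB also has a truncated, stable splice form that builds up when stimulation is repeated.

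RefSeq promoter windows (GRCm38.p6, from 250 bases before to 50 after a transcript start) matched 6 of the 8 genes, with 10 windows in all; Egr1 and Egr3 were not matched. The 150 bases before the start are printed for Fos, Junb and Egr2, a trio with r of 0.70 to 0.73 between each pair over the mice, and for Fosb, highest in the resilient mice by a small margin. This choice used the measured levels. Capitals mark TGACG on either strand (CGTCA when read on the other strand) and the CArG box (CC, then 6 bases each A or T, then GG). Fos lies at chr12:85473740-85473889 on the plus strand, Fosb at chr7:19310046-19310195 on the minus strand, Junb at chr8:84978749-84978898 on the minus strand and the Egr2 window at chr10:67537719-67537868 on the plus strand.
Fos: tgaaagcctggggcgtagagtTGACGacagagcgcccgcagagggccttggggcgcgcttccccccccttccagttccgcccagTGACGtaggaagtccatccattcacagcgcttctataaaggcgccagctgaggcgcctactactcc
Fosb: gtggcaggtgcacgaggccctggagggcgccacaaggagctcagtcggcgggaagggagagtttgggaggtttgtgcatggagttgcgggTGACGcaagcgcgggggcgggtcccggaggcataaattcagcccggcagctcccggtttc
Junb: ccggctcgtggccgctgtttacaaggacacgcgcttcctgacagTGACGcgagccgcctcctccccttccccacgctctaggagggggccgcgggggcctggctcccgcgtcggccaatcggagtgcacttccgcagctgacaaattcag
Egr2: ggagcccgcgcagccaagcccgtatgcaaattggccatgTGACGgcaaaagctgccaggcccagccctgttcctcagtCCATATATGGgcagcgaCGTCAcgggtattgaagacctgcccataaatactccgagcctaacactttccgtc

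In the windows of 300 bases, TGACG occurred in 5 of the 6 matched genes, in all of them but Fosl2. In Fos it began at 129 and 66 bases before the start, in Junb at 106, in Fosb at 60 and in the printed Egr2 window at 111 and, on the other strand, at 55. Over all 32851 windows of that length, 20.8% held TGACG. Of the 5 Egr2 windows 4 held a CArG box and 3, which overlap and share the same sites, held both motifs; 1.63% of all windows held a CArG box. The EGR site GCGNGGGCG occurred in Fosb and Fosl2 and in 5.55% of all windows. The full cAMP response element TGACGTCA (1.79% of all windows) and the AP-1 site TGANTCA (7.81%) occurred in none of the 10. A match describes letters and shows no binding.

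The arrays lay on 3 slides. Slides 1 and 2 carried every group and shared a scan day. Slide 3 carried only 2 naive and 2 susceptible mice and had a scan day of its own. Row 1 of each slide took the naive mice and row 2 the defeated ones, so row and defeat cannot be told apart. Array brightness, the 75th percentile of the log2 signal, averaged 7.82 ± 0.71 (SD, n = 5) for naive, 8.22 ± 0.61 (n = 6) for susceptible and 8.03 ± 0.12 (n = 3) for resilient mice. A level is the log2 signal of a probe minus that percentile, so a level of 0 equals the 75th percentile and each step of 1 is a doubling; levels of different probes are not comparable. Neuron markers (5 of 5) and cortical excitatory neuron markers (6 of 6) were among the tested genes. The mice are separate animals, and their number limits the precision.

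**Figure D1:**
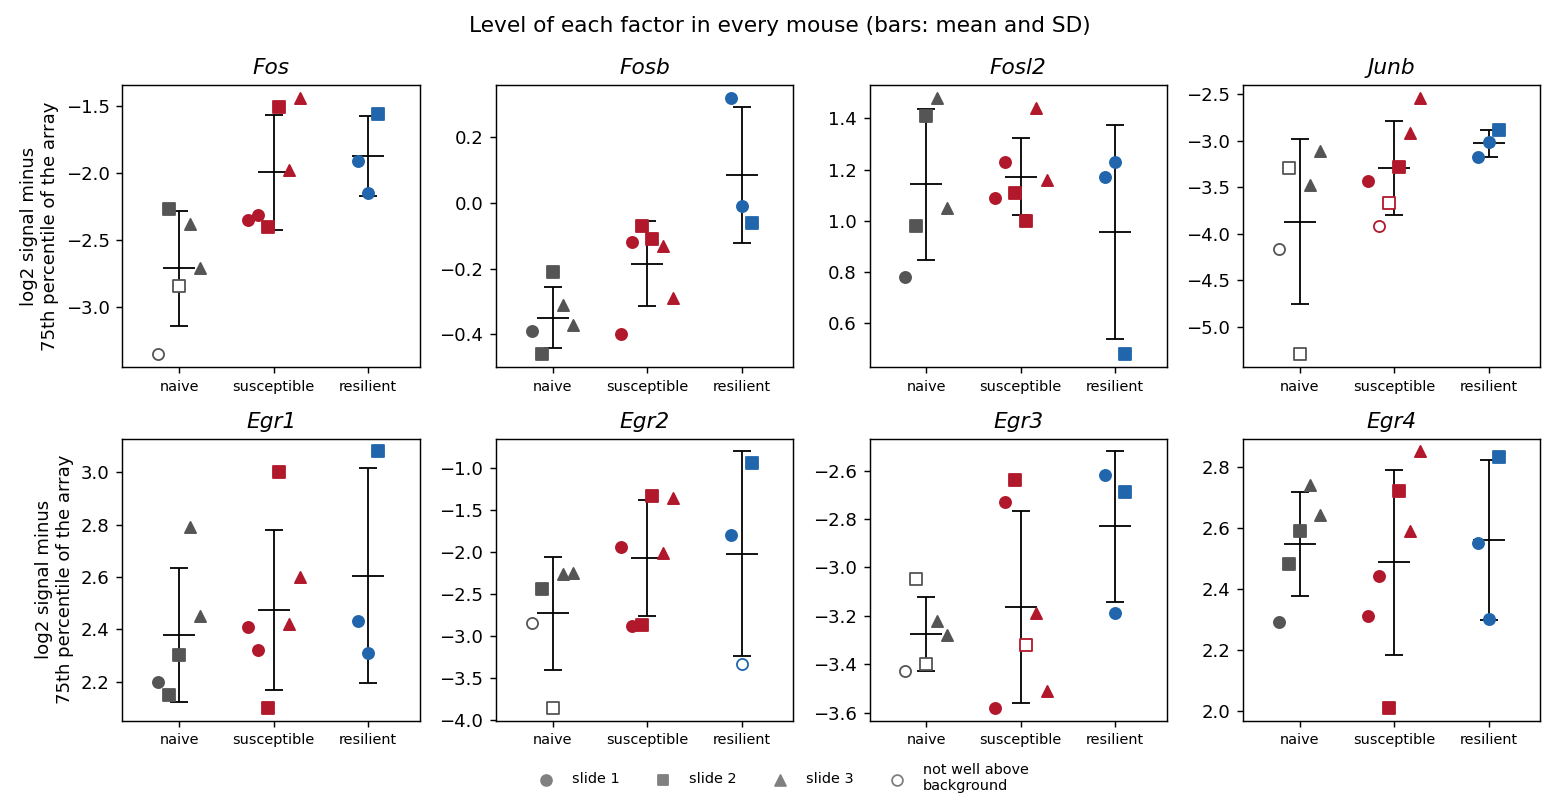
Level of each factor in every mouse, as log2 signal minus the array's 75th percentile (vertical axis), by group (horizontal axis); shapes give the slide, open symbols a signal not well above background, and bars the mean and SD over 5 naive, 6 susceptible and 3 resilient mice. For Fos and Fosb all 3 resilient mice lie above every naive mouse, while for Egr1, Egr4 and Fosl2 the groups overlap over most of their range. The share of all genes with such a separation was not counted.

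Fos, the founding member of the family, stood at -3.35, -2.27, -2.84, -2.38 and -2.71 in naive mice 1 to 5. In susceptible mice the lowest, median and highest levels were -2.40, -2.14 and -1.44, and resilient mice 1 to 3 were at -1.91, -2.15 and -1.56. All 3 resilient and 3 of 6 susceptible mice thus lay above every naive mouse. The other 3 susceptible mice (1, 2 and 3) lay between naive mouse 2 and naive mouse 5. The Fos probe is spotted 10 times per array, and the 10 spots were all well above background in 12 mice. In naive mouse 1 none of the 10 spots was, and in naive mouse 3 it was 2 of 10, so the naive mean rests in part on signals near background. Fos passed the filter on dim probes only through the susceptible and resilient groups.

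Fosb, the family member with the stable splice form, was above background in all 14 mice. Naive mice were at -0.39, -0.46, -0.21, -0.31 and -0.37, susceptible mice ran from -0.40 through a median of -0.13 to -0.07, and resilient mice were at 0.32, -0.01 and -0.06. Every resilient mouse was above every susceptible and every naive mouse, and 4 of 6 susceptible mice were above every naive mouse. The margin between resilient mouse 3 (-0.06) and susceptible mouse 3 (-0.07) was small. The share of all genes that separate the groups as Fos or Fosb does was not counted. Which splice form the probe reads is not given in the sources used here.

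Fosl2, a FOS relative with slower kinetics, was above background on all arrays with both probes. With its brighter probe the naive mice ran from 0.78 to 1.48, the susceptible from 1.00 to 1.44, and the resilient were at 1.17, 1.23 and 0.48. Resilient mouse 3 was the lowest of the 14, and the groups otherwise overlapped. The dimmer probe went from -3.70 to -0.83 and gave another order. Its 4 arrays of slide 3 (-3.19, -3.49, -3.70 and -3.45) were the lowest of all, whatever the group, so the probes of this gene disagree.

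Junb, a JUN partner in AP-1, was well above background in 9 mice: 2 of 5 naive, 4 of 6 susceptible and 3 of 3 resilient. Its naive levels were -4.16, -3.29, -5.29, -3.48 and -3.11. Susceptible mice ran from -3.92 through -3.35 to -2.54, and resilient mice were at -3.18, -3.01 and -2.89. Of the naive mice 3 were not well above background, with the lowest level in naive mouse 3, and 2 of 6 susceptible and 2 of 3 resilient mice were above every naive mouse. Junb passed that filter only through the resilient group.

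Among the EGR genes, Egr1, the family member most used to map activity, was above background in all 14 mice. Its naive levels were 2.20, 2.15, 2.30, 2.79 and 2.45, its susceptible levels ran from 2.10 through 2.41 to 3.00, and its resilient levels were 2.43, 2.31 and 3.08. Resilient mouse 3 and susceptible mouse 4 stood above the rest, and the other mice of the 3 groups overlapped. Egr4, another zinc finger factor of the family, was also above background throughout, with naive levels between 2.29 and 2.74, susceptible between 2.01 and 2.85 and resilient between 2.30 and 2.83. The 3 groups of Egr4 covered almost the same range.

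Egr2, known for its role in myelinating glia as well as in neurons, was well above background in 3 of 5 naive, 6 of 6 susceptible and 2 of 3 resilient mice. Naive mice were at -2.84, -2.44, -3.85, -2.26 and -2.25, and susceptible mice ran from -2.88 through -1.98 to -1.33. Resilient mice were at -1.79, -3.33 and -0.93. The resilient group held both the highest of the 14 levels (mouse 3) and the second lowest (mouse 2), and 4 of 6 susceptible mice were above every naive mouse. Egr3, a family member also induced by neuronal activity, was above background in 2 of 5 naive, 5 of 6 susceptible and 3 of 3 resilient mice. Its levels were -3.43, -3.05, -3.40, -3.22 and -3.28 in naive mice, ran from -3.58 through -3.26 to -2.64 in susceptible mice, and were -2.62, -3.19 and -2.69 in resilient mice. Here 2 susceptible and 2 resilient mice were above every naive mouse. Egr2 passed the filter only through the susceptible group and Egr3 only through the resilient group.

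The first comparison, of susceptible with naive mice, asks which factors differed after defeat with the susceptible phenotype. Fos was higher by 0.72 ± 0.23 on the log2 scale (SE, n = 6 and 5), a 1.64-fold difference with a 95% interval of the log2 difference from 0.23 to 1.20. Egr2 followed with 0.66 ± 0.43 (interval -0.26 to 1.58), Junb with 0.57 ± 0.34 (-0.16 to 1.31) and Fosb with 0.16 ± 0.10 (-0.04 to 0.37). Egr3 (0.11 ± 0.18), Egr1 (0.10 ± 0.18), Fosl2 (0.03 ± 0.16) and Egr4 (-0.06 ± 0.15) differed by less than their error. Fos was the one factor whose interval left out 0.

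By limma's moderated test with Benjamini-Hochberg adjustment over all genes, 0 of 8 factors passed an adjusted p of 0.05, beside 2.60% of all genes tested. The adjusted p was 0.0872 for Fos, 0.311 for Fosb, 0.320 for Junb and 0.366 for Egr2. At an unadjusted p under 0.05 it was 1 of 8, Fos, beside 24.0% of all genes. The median difference of the 8 was 0.14, beside 0.02 for all genes. It was 0.075 with normexp background correction and 0.23 on slides 1 and 2 alone. Above 0 were 7 of 8, beside 53.2% of all genes. Fos rose past the threshold with slide as a block (0.79 ± 0.17; adjusted p = 0.0147), the single factor that did, beside 15.3% of all genes, and with scan day as a block (0.74; adjusted p = 0.0305), beside 17.3%. With slide as a block and each mouse left out in turn it kept that call in 13 of 14 fits and lost it without naive mouse 1, the only naive mouse of slide 1 (adjusted p = 0.0520). Junb passed in 1 of those fits, without naive mouse 2 (adjusted p = 0.0327). The difference of Fos was 0.16 ± 0.13 with normexp in place of the scanner software's background, that of Egr2 was 0.10 and that of Junb 0.01.

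Within slides 1, 2 and 3, each with 1 or 2 mice per group, Fos was higher in susceptible than in naive mice by 1.03, 0.60 and 0.84. Junb was higher by 0.48, 0.82 and 0.57, Egr2 by 0.43, 1.04 and 0.57, and Fosb by 0.13, 0.25 and 0.13. These 4 factors were thus above naive on all 3 slides. On slides 1 and 2 naive mice 1 and 3 were not well above background for Fos, Junb or Egr2, nor was naive mouse 2 for Junb. The others changed sign between slides, at 0.16, 0.33 and -0.11 for Egr1 and 0.27, 0.24 and -0.11 for Egr3. Naive arrays were also dimmer than susceptible arrays on each slide, at 7.31 against 7.99, 7.30 against 7.73 and 8.59 against 8.93. With brightness as a covariate Fos was at 0.64 ± 0.23, Egr2 at 0.46 ± 0.43 and Junb at 0.30 ± 0.29, and 0 of 8 passed in limma beside 10.1% of all genes; the part of brightness in these differences was not tested beyond that fit.

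**Figure D2:**
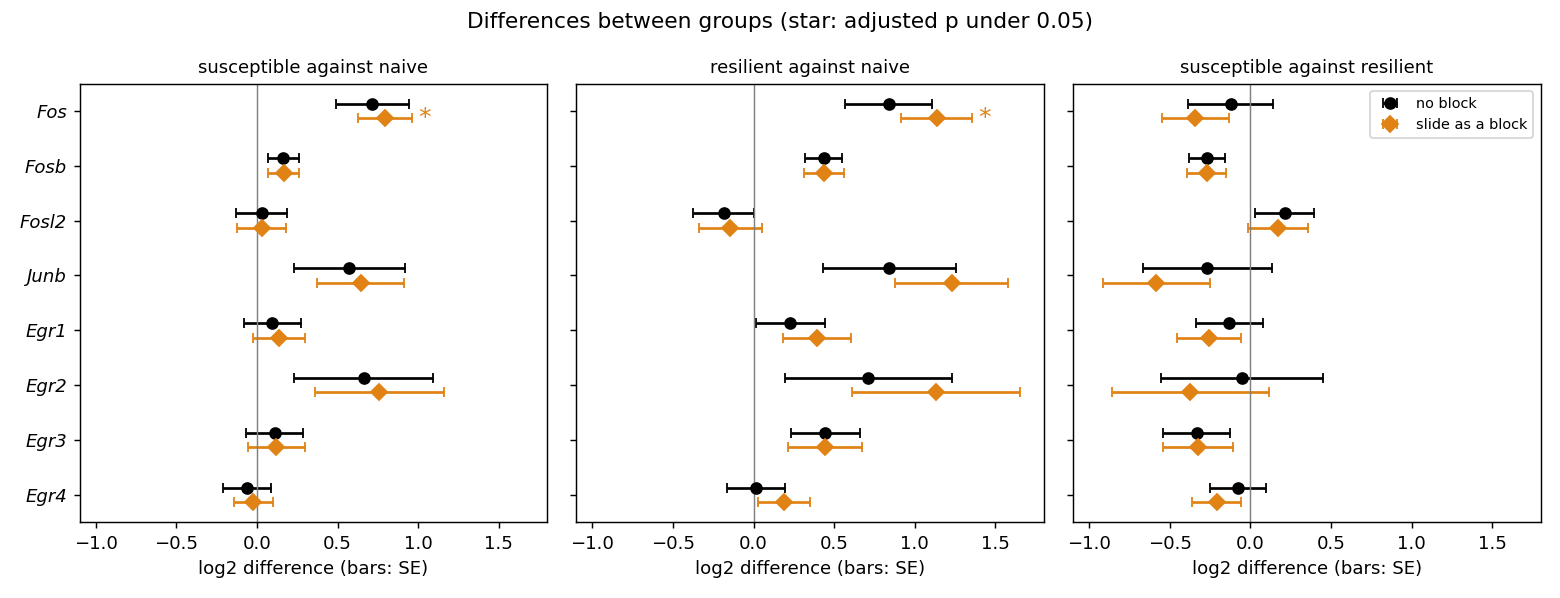
Log2 difference of each factor (horizontal axis) with its SE, for the 3 comparisons, without a block (black) and with slide as a block (orange); a star marks an adjusted p under 0.05. Fos carries the star in both comparisons with naive mice, with slide as a block alone, and no factor carries it between susceptible and resilient mice.

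Resilient mice were compared with the same 5 naive mice to ask the matching question for the resilient phenotype. Junb was higher by 0.84 ± 0.41 (SE, n = 3 and 5; interval -0.04 to 1.73) and Fos by 0.84 ± 0.27 (0.26 to 1.42), a 1.79-fold difference. Egr2 differed by 0.71 ± 0.52 (-0.40 to 1.82), Egr3 by 0.44 ± 0.21 (-0.01 to 0.90) and Fosb by 0.43 ± 0.12 (0.19 to 0.68), a 1.35-fold difference. Egr1 (0.23 ± 0.21), Egr4 (0.01 ± 0.18) and Fosl2 (-0.18 ± 0.19) were near or within their error. The 2 factors whose intervals left out 0 were Fos and Fosb.

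In limma 0 of 8 factors passed here, beside 0.145% of all genes; Fosb had an adjusted p of 0.0976, Fos of 0.123, Egr3 of 0.259 and Junb of 0.269. At an unadjusted p under 0.05 it was 2 of 8, beside 20.3% of all genes. The median difference of the 8 was 0.44, beside 0.02 for all genes. It was 0.27 without resilient mouse 3 and 0.15 with normexp. Above 0 were 7 of 8, beside 53.1% of all genes. With slide as a block Fos rose (1.14 ± 0.22; adjusted p = 0.0292), 1 of 8 factors beside 3.54% of all genes, and Junb (1.23 ± 0.35) and Fosb (0.44 ± 0.13) had adjusted p of 0.0626 and 0.0627. Fos kept the call in 7 of 14 fits with 1 mouse left out, and lost it without naive mouse 1 or 2, susceptible mouse 2 or 5, or any of the resilient mice (highest adjusted p 0.201). With scan day as a block Fos, Fosb and Junb passed (adjusted p of 0.0372, 0.0390 and 0.0397), 3 of 8 beside 10.1% of all genes. With the replicate number as a block Fos passed (1.01; adjusted p = 0.0380), 1 of 8 beside 5.04% of all genes, while in susceptible mice 0 of 8 did, beside 11.8%. With brightness as a covariate Fosb alone passed (0.44 ± 0.11; adjusted p = 0.0409), beside 7.61%. With normexp Fos was at 0.23 ± 0.16, Junb at 0.08 ± 0.14, Egr2 at 0.20 ± 0.20 and Fosb at 0.31 ± 0.10.

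Within slides 1 and 2, the slides with resilient mice, Fos was higher than in naive mice by 1.32 and 0.99, Junb by 1.07 and 1.40, Fosb by 0.55 and 0.28, and Egr3 by 0.53 and 0.54. The naive mice of these slides are mice 1, 2 and 3. For Junb and Egr3 none of them was well above background, and for Fos and Egr2 mice 1 and 3 were not. These differences, and the fits with slide as a block, thus rest on naive signals near background for those genes. The same holds with scan day as a block, as the resilient mice share their scan day with these naive mice alone. Those genes also passed the filter on dim probes only through defeated groups. Egr2 differed by 0.28 on slide 1 and by 2.22 on slide 2, where the resilient mouse was mouse 3. Egr1 behaved likewise, at 0.17 and 0.85, while Fosl2 was at 0.41 on slide 1 and -0.72 on slide 2. Without resilient mouse 3 the difference over all slides was -0.01 for Egr1, 0.06 for Fosl2 and -0.12 for Egr4, each of the opposite sign to the value from all mice, and that of Egr2 was 0.17.

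**Figure D3:**
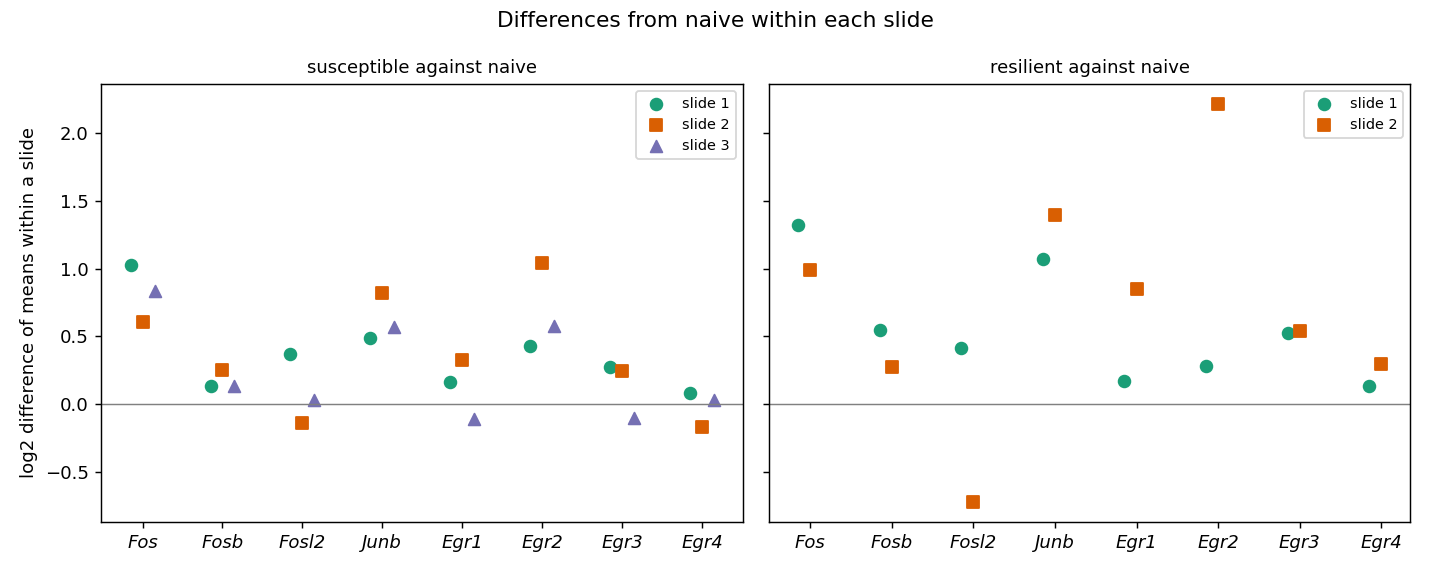
Log2 difference between the mean of the defeated mice and the mean of the naive mice within each slide (vertical axis) for the 8 factors (horizontal axis), for susceptible (left) and resilient mice (right); each point rests on 1 or 2 mice per group. The points of Fos, Fosb, Junb and Egr2 are above 0 on every slide in both panels. On slides 1 and 2 the naive signals of Fos, Junb and Egr2 were in part or all not well above background.

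Susceptible and resilient mice were compared to ask which factors differed between the phenotypes. Fosb was lower in susceptible mice, at -0.27 ± 0.11 (n = 6 and 3; interval -0.51 to -0.03), and was the one factor whose interval left out 0. Egr3 differed by -0.33 ± 0.21 (-0.78 to 0.11), Junb by -0.27 ± 0.40 (-1.12 to 0.59), Egr1 by -0.13 ± 0.21, Fos by -0.12 ± 0.26 (-0.69 to 0.44), Egr4 by -0.07 ± 0.17 and Egr2 by -0.05 ± 0.50 (-1.13 to 1.03). Fosl2 was the one above 0, at 0.21 ± 0.18. In limma 0 of 8 passed, beside 0% of all genes; at an unadjusted p under 0.05 it was 1 of 8, Fosb (limma adjusted p = 1.00), beside 0.754% of all genes. The Fosb difference was -0.42 within slide 1 and -0.03 within slide 2. With slide as a block it was -0.27 ± 0.12, and 0 of 8 factors passed there too, beside 0% of all genes. The interval of Junb holds a 2-fold difference in favour of the resilient mice, and that of Egr2 holds one in either direction.

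The factors did not vary as 1 group between mice. Pearson's r over the 14 mice ran from -0.45 to 0.77 over the 28 pairs, with a median of 0.15, and 6 pairs passed an adjusted p of 0.05 (permutation test, two-sided, 100000 resamples, Benjamini-Hochberg over 28 pairs). Fos, Junb and Egr2 varied together, by the same permutation test: r was 0.70 for Fos and Junb (p = 0.0053, adjusted 0.0297), 0.73 for Fos and Egr2 (p = 0.0029, adjusted 0.0203) and 0.73 for Junb and Egr2 (p = 0.00208, adjusted 0.0203). By that permutation test Egr1 went with Egr4 (r = 0.77, p = 0.0013, adjusted 0.0203) and with Egr2 (r = 0.74, p = 0.00224, adjusted 0.0203), and Fosb with Egr3 (r = 0.65, p = 0.00926, adjusted 0.0432). Spearman's rho for these pairs, in the same order, was 0.77, 0.69, 0.65, 0.85, 0.78 and 0.64. Its adjusted permutation p passed for Fos and Junb (0.0197), Egr1 and Egr4 (0.00476) and Egr1 and Egr2 (0.0197), and lay between 0.0524 and 0.0642 for the others.

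Without the 2 mice farthest from the median of the first gene of each pair, r was 0.61, 0.76, 0.53, 0.77, 0.54 and 0.67 in that order, and 0 of 28 pairs passed the permutation test. The lowest adjusted permutation p was 0.0592, for Fos with Egr2 and for Egr1 with Egr4. Each of these tests had 2 mice fewer, so a lost call does not show that a relation rested on the mice left out. After group and slide means were removed, 3 pairs passed: Egr1 with Egr4 (r = 0.75, adjusted p = 0.0403), Fos with Egr4 (r = 0.73, adjusted p = 0.0447) and Fosl2 with Egr2, inversely (r = -0.70, adjusted p = 0.0486). The 3 pairs among Fos, Junb and Egr2 had r of 0.48 to 0.59 and did not pass there (permutation, adjusted p of 0.0919 to 0.171). That permutation treats the residuals as exchangeable. The permutation of the levels as measured shuffles mice across groups and slides, so shifts that 2 genes share between groups or slides count in it. All pairs share their arrays, and so the brightness and slide of each. The r with array brightness was 0.64 for Junb, 0.44 for Egr2, 0.38 for Fos and from -0.09 to 0.38 for the other factors. By the mean of the 8 centred levels, resilient mouse 3 (0.43), susceptible mouse 6 (0.33) and susceptible mouse 4 (0.29) were highest. Naive mouse 3 (-0.52) and naive mouse 1 (-0.47) were lowest, and these are the 2 mice in which Fos, Junb and Egr2 were all not well above background. Susceptible mice 1, 2 and 3 (-0.09, -0.10 and -0.16) and resilient mouse 2 (-0.08) lay within the naive range.

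**Figure D4:**
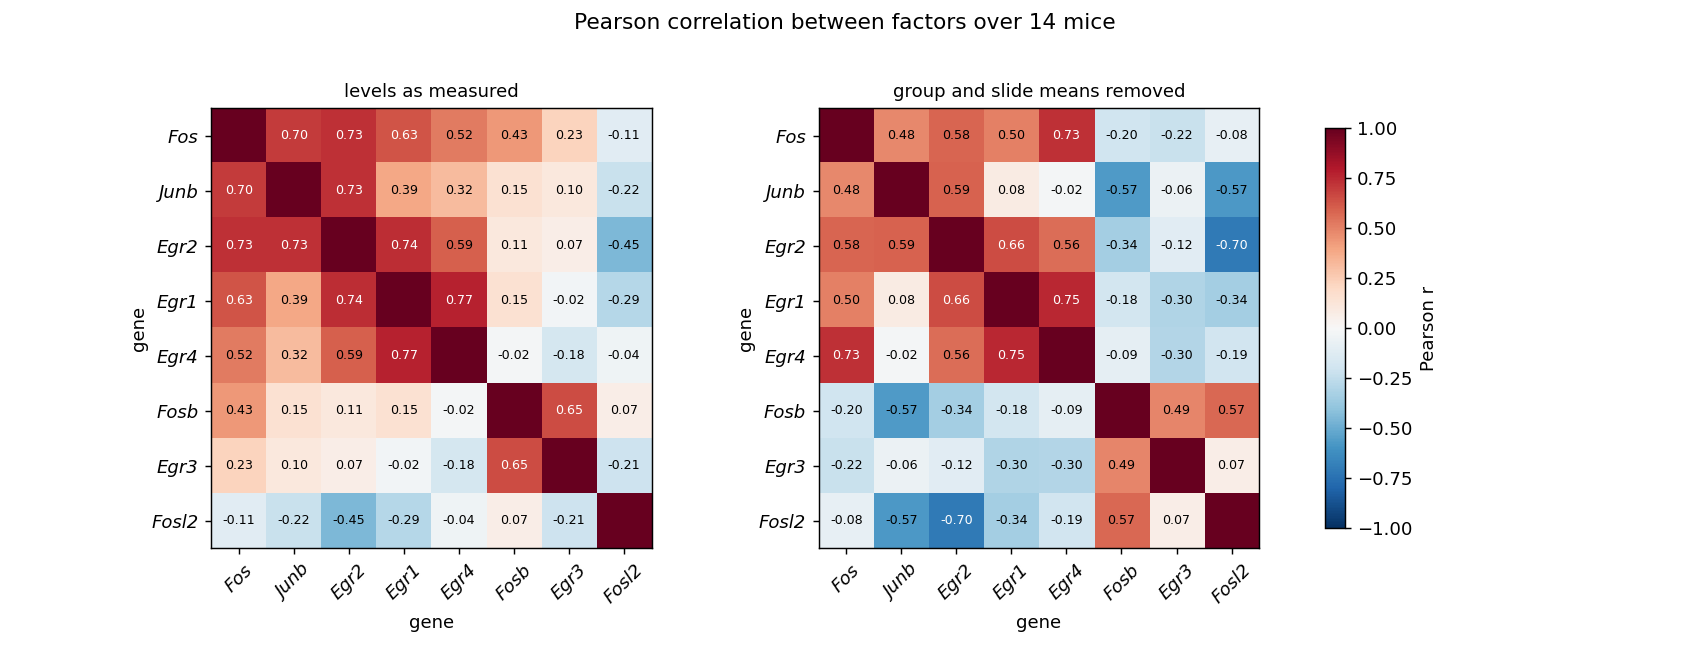
Pearson's r between each pair of factors over 14 mice, for the levels as measured (left) and after group and slide means were removed (right); rows and columns are genes and the colour scale runs from -1 to 1. Fos, Junb, Egr2, Egr1 and Egr4 form a block of positive values at the left, with Fosb and Egr3 as a second pair and Fosl2 apart.

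Of the 14439 other tested genes, those most like the mean of the 8 factors over the 14 mice were Pea15a, a phosphoprotein that binds ERK (r = 0.89), C2cd4c (0.87), the sirtuin Sirt7 (0.87), Alkbh4 (0.86), Sertad1 (0.86), the lysosomal transporter Slc15a4 (0.86), 2700062C07Rik (0.86), Cyria (0.85), A430005L14Rik (0.85) and Rassf1 (0.85). With group and slide means removed, r was 0.85 for Pea15a and from 0.55 to 0.81 for the other 9. These values are a description with no test. Of the factors themselves, Fos (0.91), Egr2 (0.89) and Junb (0.82) followed the mean most closely and Fosl2 (-0.21) least. Each factor is part of that mean, and the levels were centred but not scaled. Egr2, Junb and Fos had the widest ranges over the mice (2.92, 2.75 and 1.91) and so weigh most in it. Their close following is thus in part built in, and the genes most like the mean largely follow these 3 dim probes.

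Other AP-1 genes were listed as 15, of which 12 were tested. In limma 0 of 12 passed in either comparison with naive mice, beside 2.60% and 0.145% of all genes, and 4 and 3 had an unadjusted p under 0.05, beside 24.0% and 20.3%. The median differences were 0.09 in susceptible and 0.12 in resilient mice, beside 0.02 for all genes in both. The smallest p values in susceptible mice were those of Jdp2, a repressor that binds AP-1 sites (0.31 ± 0.09; adjusted p = 0.0646), and Maff, a small MAF protein (0.94 ± 0.27; adjusted p = 0.0690). In resilient mice Jdp2 was at 0.26 ± 0.10 and Maff at 0.66 ± 0.33. Jun, the main partner of FOS, is named here after its values were seen: it was at 0.62 ± 0.21 in susceptible (adjusted p = 0.104) and 0.76 ± 0.25 in resilient mice (adjusted p = 0.131). With slide as a block Jun, Jdp2 and Maff rose in susceptible mice (adjusted p of 0.0132, 0.0263 and 0.0412), 3 of 12 beside 15.3% of all genes, and 0 of 12 passed in resilient mice, beside 3.54%. In fits without each mouse in turn, Jun kept that call in 14 of 14 fits, Jdp2 in 9 and Maff in 6.

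The EGR co-repressors went in opposite directions. Nab1 was at -0.35 ± 0.12 in susceptible and -0.36 ± 0.15 in resilient mice. Nab2, itself induced by EGR proteins, was at 0.28 ± 0.13 and 0.46 ± 0.16. Neither passed in limma, with adjusted p between 0.118 and 0.204, beside 2.60% of all genes in susceptible and 0.145% in resilient mice. Both had an unadjusted p under 0.05 in each comparison, as did 24.0% and 20.3% of all genes.

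Other immediate early genes were listed as 27, of which 24 were tested; Nr4a3, Ier2 and Dusp5 were not well above background on all arrays of any group. In susceptible mice 2 of 24 rose, Arc and Csrnp1, and 0 fell, beside 2.60% of all genes called, with a list median of 0.13 beside 0.02 for all genes. Arc, a synaptic protein whose transcript marks active neurons, rose by 0.89 ± 0.20 (adjusted p = 0.0383) and was at 0.87 ± 0.24 in resilient mice (adjusted p = 0.102). Csrnp1, a nuclear factor of the early response, rose by 0.57 ± 0.11 (adjusted p = 0.0304) and was at 0.57 ± 0.14 in resilient mice (adjusted p = 0.0837). In resilient mice 0 of 24 passed, beside 0.145% of all genes, and 6 had an unadjusted p under 0.05, beside 20.3%. The list median there was 0.13. Both calls were lost with no filter on dim probes (adjusted p of 0.0840 and 0.0743) and with the arrays of the 2 groups alone (0.0565 and 0.0532), and Csrnp1 also with normexp (0.0558). Dropping single mice raised the adjusted p to at most 0.0867 for Arc and 0.0694 for Csrnp1. With slide as a block both held in 14 of 14 such fits in susceptible mice, and Dusp1, a phosphatase that acts on MAP kinases, rose (adjusted p = 0.0196) while Klf4, a zinc finger factor also found in endothelium, fell (0.0378); with 1 mouse left out these held in 13 and 6 of 14 fits. That makes 4 of 24 called with the block, a share near the 15.3% of all genes. In resilient mice Arc and Csrnp1 passed with that block (0.0292 and 0.0304), 2 of 24 beside 3.54% of all genes, and held in 7 and 8 of 14 fits with 1 mouse left out (highest adjusted p 0.201 for both).

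Upstream regulators, the kinases and factors that act on the early genes, were all tested (24 of 24). In limma 0 passed in either comparison, beside 2.60% and 0.145% of all genes, and 5 and 2 had an unadjusted p under 0.05, beside 24.0% and 20.3%. The medians were 0.02 and 0.03, beside 0.02 for all genes in both. Elk3, an ETS factor also found in endothelium, was at -0.53 ± 0.17 in susceptible (adjusted p = 0.0927) and -0.55 ± 0.21 in resilient mice, and Mef2c, a neuronal activity factor, at 0.33 ± 0.12 (adjusted p = 0.113) and 0.38 ± 0.14. With slide as a block Elk1, Elk3 and Elk4 fell in susceptible mice and Map2k1, the kinase that activates ERK, rose; in resilient mice Elk1 and Elk4 fell and Map2k1 rose. These are 4 of 24, near the 15.3% of all genes called in that fit, and 3 of 24 beside 3.54%. In susceptible mice Elk1 and Elk4 kept that call in 14 of 14 fits with 1 mouse left out, Elk3 in 4 and Map2k1 in 2. In resilient mice Elk1, Elk4 and Map2k1 kept it in 4, 4 and 3 fits, with highest adjusted p of 0.235, 0.277 and 0.260. The probe that stands for Elk1 was very bright, with a mean level of 9.52 in naive mice, and what it reads was not checked. Late response genes of neuronal activity, which follow the early factors, were tested for 10 of 12. Nab2 is counted both here and among the EGR co-repressors. In limma 0 passed without a block, beside 2.60% and 0.145% of all genes, and 5 and 4 of 10 had an unadjusted p under 0.05, beside 24.0% and 20.3%. The medians were 0.27 in susceptible and 0.24 in resilient mice, beside 0.02 for all genes in both. Above 0 were 10 of 10 and 9 of 10, beside 53.2% and 53.1% of all genes. Rgs2, a regulator of G protein signalling, was at 0.45 ± 0.15 and 0.65 ± 0.18, and Vgf, a secreted neuropeptide precursor, at 0.40 ± 0.13 and 0.43 ± 0.16. Vgf passed with slide as a block in susceptible mice (adjusted p = 0.0499), 1 of 10 beside 15.3% of all genes, and kept that call in 2 of 14 fits with 1 mouse left out.

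**Figure D5:**
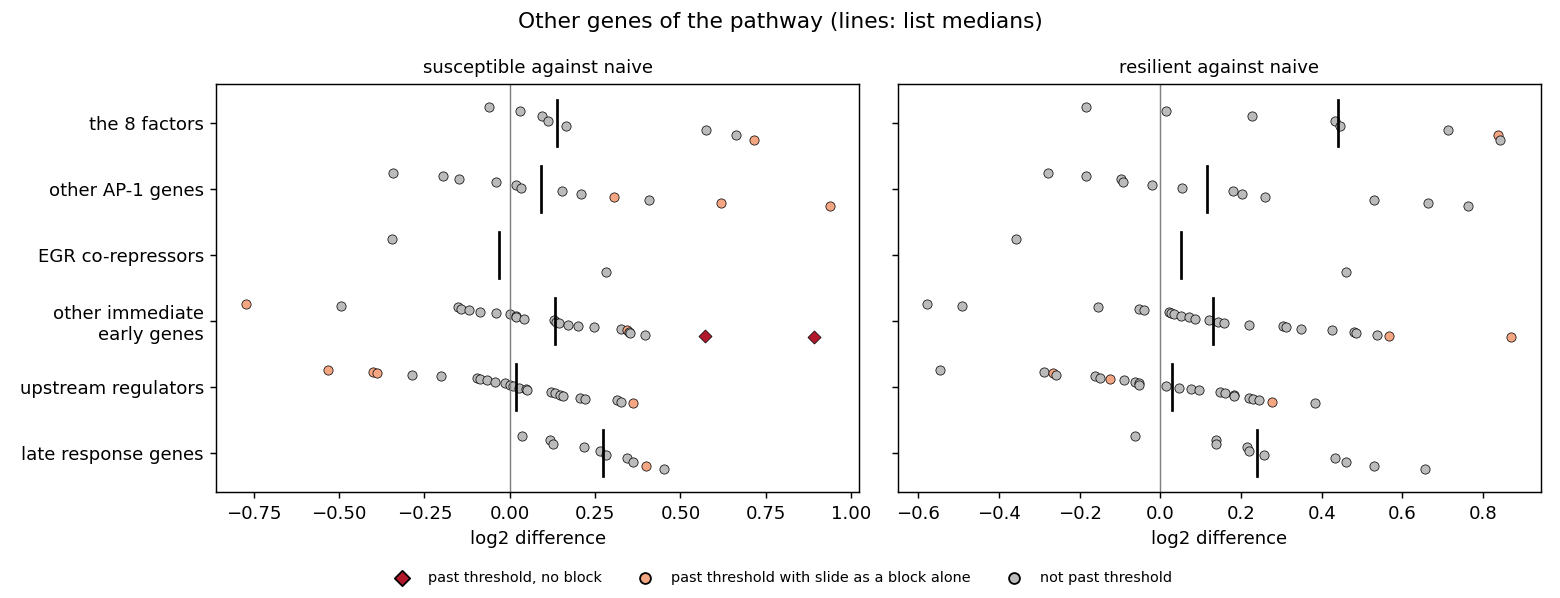
Log2 difference from naive mice (horizontal axis) of each tested gene of 6 lists (vertical axis), in susceptible (left) and resilient mice (right); vertical bars are list medians and colours show which genes passed an adjusted p of 0.05. Arc and Csrnp1 are the 2 diamonds at the right of the left panel; late response genes lie at or above 0 in susceptible mice.

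Markers of other cell types differed between the groups too, given as the sum of a list's linear signals relative to the 75th percentile. Astrocyte markers (6 of 6 tested; S100b fell) summed to 89.0 to 137.6 in naive, 71.4 to 101.3 in susceptible and 65.1 to 84.5 in resilient mice. Endothelial markers (4 of 5 tested, not Tek; Slco1a4 fell) summed to 16.8 to 24.3, 10.7 to 16.3 and 9.64 to 21.3, and meningeal fibroblast markers (5 of 5 tested, 0 past the threshold) to 13.4 to 30.6, 5.31 to 22.8 and 6.29 to 23.9. Blood leukocyte markers (4 of 5 tested, not Ngp; S100a8 and S100a9 rose) summed to 0.468 to 0.823, 0.902 to 6.45 and 0.903 to 2.01. These calls were in susceptible mice, beside 2.60% of all genes. In each comparison with naive mice 0 of 6 astrocyte, 0 of 4 endothelial and 0 of 5 fibroblast markers lay above 0. An unadjusted p under 0.05 was held by 4 of 6, 2 of 4 and 1 of 5 in each, beside 24.0% and 20.3% of all genes. Of the leukocyte markers 4 of 4 and 3 of 4 lay above 0, and 3 and 2 had an unadjusted p under 0.05. Neuron markers (5 of 5 tested, 0 past the threshold) summed to 300.2 to 355.8, 269.2 to 377.2 and 358.5 to 375.4, and cortical excitatory neuron markers (6 of 6, 0 past it) to 79.2 to 111.3, 68.0 to 101.9 and 77.8 to 84.2. With slide as a block the excitatory marker Neurod6 fell in susceptible mice (-0.29; limma adjusted p = 0.0486), 1 of 6 beside 15.3% of all genes. It kept that call in 1 of 14 fits with 1 mouse left out. Inhibitory neuron markers (5 of 5) summed to 58.5 to 73.3 in naive, 74.3 to 95.6 in susceptible and 67.2 to 106.6 in resilient mice, so susceptible and naive mice did not overlap, by a narrow margin. The endothelial and blood leukocyte sums of these 2 groups did not overlap either. The share of all genes that separate them in this way was not counted. In limma 0 of the 5 inhibitory markers passed, beside 2.60% and 0.145% of all genes, and 3 and 2 had an unadjusted p under 0.05, beside 24.0% and 20.3%. Above 0 were 5 of 5 in both comparisons, beside 53.2% and 53.1% of all genes. With slide as a block Gad1 and Sst rose in susceptible mice (adjusted p of 0.0433 and 0.0485), 2 of 5 beside 15.3% of all genes. They kept that call in 5 and 4 of 14 fits with 1 mouse left out. Striatal neuron markers (6 of 6) summed to 15.6 to 18.9, 19.0 to 20.5 and 16.1 to 23.1, again with no overlap between naive and susceptible mice, while 1 of them, the adenosine receptor gene Adora2a, fell in susceptible mice (-0.45 ± 0.08; adjusted p = 0.0175). Of the oligodendrocyte (5 of 5), oligodendrocyte precursor (3 of 3), microglia (5 of 5), pericyte or smooth muscle (4 of 5) and erythroid markers (3 of 5), 0 passed in limma without a block in either comparison, beside 2.60% and 0.145% of all genes. At an unadjusted p under 0.05 it was 2 of 4 pericyte and 2 of 3 erythroid markers in susceptible mice, beside 24.0% of all genes. In each comparison 0 of 4 pericyte and 3 of 3 erythroid markers lay above 0. Erythroid sums ran from 1.02 to 3.58, from 1.70 to 15.4 and from 1.76 to 10.1, and pericyte sums from 17.9 to 43.5, from 7.21 to 30.4 and from 8.85 to 25.4. The highest adjusted p with 1 mouse left out was 0.111 for S100b, 0.0898 for Slco1a4, 0.0572 for S100a9 and 0.0453 for S100a8. With slide as a block Mog, Aldh1l1, S100b, Flt1 and Slco1a4 fell in susceptible mice, and Hbb-bt, Camp, S100a8 and S100a9 rose. These were 1 of 5 oligodendrocyte, 2 of 6 astrocyte, 2 of 4 endothelial, 1 of 3 erythroid and 3 of 4 leukocyte markers, beside 15.3% of all genes. Adora2a fell with that block in both comparisons with naive mice, 1 of 6 striatal markers beside 15.3% and 3.54%. The part of these shifts in the levels of the 8 factors was not tested.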

How the data were processed

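Agilent Feature Extraction 11.0.1.1 wrote the deposited spot intensities, per the file headers, with its own background subtraction and no scaling across arrays. The authors also deposited a log2 value table, whose entries differed from log2 of the processed signal by 1 constant per array (r = 1 on each array; column medians -3.08 to -2.73).

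Control spots (3671 of 62976) and outlier spots were left out, spots of a probe were averaged, log2 was taken and each array's 75th percentile over its spots subtracted. Probes were named by accession through RefSeq (GRCm38.p6, used for names and promoter windows, as the headers name an older build): 27503 had a gene and 28178 none. The brightest probe stood for a gene. Genes were tested if every array of 1 or more groups gave a signal well above background; 5 were left out for an outlier spot. Limma 3.58.1 (R 4.3.3) fitted all 14 arrays with 3 groups and no covariate, with calls at an adjusted p under 0.05; the fit was tested on simulated data. Normexp (offset 50) took each spot's median signal and median local background.

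The labels do not say what a replicate number shares. Deviations from group means of mice with the same number correlated over 0.1 in 3 of 3 resilient and naive pairs (0.11 to 0.32), each best with its own number, in 3 of 5 susceptible and naive pairs and in 2 of 3 susceptible and resilient pairs (lowest -0.38, highest 0.71).

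All 8 factors are named whatever their p; of other lists, members past the threshold in any comparison without a block or else the 2 smallest p in susceptible mice, with further members named where the block changed a call. Members, lists and naming rule were chosen with earlier results of these data known. Ccn1, Mrtfa and Mrtfb were listed under older symbols. Alternatives were other normalisation, background, filter and probe rules, the authors' values, slide, scan day or a replicate block, other variance settings, the groups compared alone and leaving out each mouse. Slide block with each mouse left out, slides 1 and 2 alone and brightness as a covariate were added after the data were seen.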

Additional observations from a re-analysis of the deposited data

How the results depend on the processing

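Without a block, 0 of 8 factors passed in any comparison, also with other normalisation, background, filter, probe or variance settings, the authors' values, slides 1 and 2 alone, the groups compared alone or any mouse left out. Susceptible against naive, 1 passed with slide or scan day as a block (Fos in both). Resilient against naive, 1 passed with slide as a block and 1 with a replicate block (Fos in both), 3 with scan day and 1 with brightness as a covariate (Fosb). Fits without 1 mouse, with and without slide as a block, gave 0 to 2 and 0 to 1.

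The replicate number as a block also left Fos in susceptible mice at 0.60 ± 0.18 (adjusted p = 0.0550); susceptible mouse 6 has no partner there and adds nothing.

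Pairs of correlated factors numbered 3 after group and slide means were removed and 0 without the 2 farthest mice.

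Small differences changed sign. With normexp, Egr3 was at -0.23 in susceptible and -0.039 in resilient mice and Egr4 at 0.039 in susceptible mice. With the mean of both probes Fosl2 was at 0.11 in resilient mice and -0.086 between susceptible and resilient. With brightness as a covariate Fosl2 was at -0.041 in susceptible and Egr4 at -0.026 in resilient mice. Leaving out 1 mouse, with or without the slide block, Fosl2 ran from -0.12 to 0.14, Egr1 from -0.010 to 0.25 and Egr4 from -0.13 to 0.10 in susceptible mice; in resilient mice they ran from -0.36 to 0.20, from -0.0087 to 0.49 and from -0.12 to 0.28. Between susceptible and resilient mice Fos ran from -0.43 to 0.033, Fosl2 from -0.15 to 0.35, Egr1 from -0.37 to 0.10, Egr2 from -0.94 to 0.49 and Egr4 from -0.30 to 0.060. Of 1254 single-gene values under alternatives 1121 kept direction and call, 79 gained a call, 19 lost it and 35 changed sign. These values pool the factors with Jun, Arc and Csrnp1, which were followed against naive mice only. The lost calls are all of Arc or Csrnp1, as no factor had a call to lose, and the sign changes are all of the factors. The cause was not tested. Signals near background limit Fos, Junb, Egr2 and Egr3 in naive mice.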
